A study of Mus musculus with 6 samples.

Results

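Neuropeptide Y (Npy), a set of its receptors (Npy1r, Npy2r and Npy5r), a peptidase that trims it (Dpp4) and 3 further peptide genes (Penk, Calca and Adm) were followed through RNA-seq of mouse corneal endothelium. These 8 genes were taken by symbol from 57180 gene identifiers, and were chosen by levels and group differences already seen in these 6 libraries, the same estimated counts and TPM values used below. Their group differences, and their outcome in the fit across all genes, are therefore given as a description and support nothing. The libraries came from corneal endothelial cells of mice homozygous for the Col8a2 Q455K allele, a model of Fuchs endothelial corneal dystrophy that both groups share. The Col8a2 group had 3 libraries from Col8a2Q455K/Q455K mice with no treatment, and the other group had 3 from Col8a2Q455K/Q455K/Tcf4+/- mice, which the labels call heterozygous for a knockout of Tcf4, a transcription factor of the E protein class. Labels give neither ages nor whether a library is 1 animal or a pool, nor do they give the cells in which Tcf4 was deleted, and p-values therefore reflect only the spread among these libraries, which may be technical.

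Neuropeptide Y is a C-terminally amidated peptide made by sympathetic nerves and many central and retinal neurons, and it acts on G protein-coupled Y receptors that lower cyclic AMP. Dpp4, a membrane peptidase, removes the first residues of the peptide and so shifts it from Y1 towards Y2 and Y5 receptors. Penk encodes proenkephalin, the precursor of the opioid enkephalins. Calca gives calcitonin or the sensory nerve peptide CGRP by alternative splicing, and Adm encodes adrenomedullin, a vasoactive peptide of the same family that shares its receptor subunits.

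Estimated counts summed to 30344161 to 54265479 for each library, with the lowest in the library labelled Tcf4+/- replicate 3. Tcf4 itself stood at 313, 470 and 430 CPM (counts scaled to library size with TMM factors) in the Col8a2 libraries, against 440, 599 and 373 CPM in those labelled Tcf4+/-, with a log2 fold change of 0.22 (SE 0.33, 95% interval -0.52 to 0.96). It did not show the loss its label names, so the groups are called by their labels. Counts over the whole gene do not tell whether the targeted allele is still transcribed. All 12 corneal endothelium markers had counts in all 6 libraries, and their summed level was 12504 to 16927 TPM (abundance scaled to gene length and library size) in the Col8a2 group and 6655 to 14219 TPM in the group labelled Tcf4+/-, lowest in replicate 3. RNA of other eye tissues was also present. Stromal keratocyte markers summed to 5409 to 9320 TPM in the Col8a2 group and 6480 to 9990 TPM in the other. Corneal epithelium markers summed to 2235 to 3795 and 1519 to 4166 TPM. Retinal neuron markers summed to 1703 to 1934 and 1650 to 5701 TPM in the 2 groups, and lens markers to 47.8 to 887 and 153 to 12126 TPM, with the highest lens levels in the libraries labelled Tcf4+/- replicates 2 and 3. Erythroid markers summed to 1741 to 5559 TPM in the Col8a2 group and 3113 to 16876 TPM in the other, and in the library labelled Tcf4+/- replicate 1 they exceeded the endothelium markers. In the libraries labelled Tcf4+/- replicates 2 and 3, mitochondrial tRNA genes also took 15.6% and 15.8% of all TPM, against 0% in the other 4, which lowers every other TPM value there. The same 2 libraries differed in fragment size. The gene length used for TPM was shortened for it by up to 155 and 150 bases there, against 211 to 241 bases in the other 4. The part of fragment size in the tRNA share, or in the TPM of short genes, was not tested.

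The stretch before the transcription start is shown for 3 genes whose levels lay far apart, Npy, Adm and the receptor gene Npy5r. The 250 bases before each start are from RefSeq, build GRCm38.p6, a different build from that of the files, and capitals mark an E-box (CANNTG), the motif that E proteins such as Tcf4 bind. Of the 8 genes, 7 had an entry.
Npy, chr6:49822460-49822709, plus strand: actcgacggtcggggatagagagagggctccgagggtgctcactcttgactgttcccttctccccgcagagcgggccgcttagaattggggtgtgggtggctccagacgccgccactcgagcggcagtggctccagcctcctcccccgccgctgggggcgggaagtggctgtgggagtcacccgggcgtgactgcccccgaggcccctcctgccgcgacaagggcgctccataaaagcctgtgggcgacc
Adm, chr7:110627407-110627656, plus strand: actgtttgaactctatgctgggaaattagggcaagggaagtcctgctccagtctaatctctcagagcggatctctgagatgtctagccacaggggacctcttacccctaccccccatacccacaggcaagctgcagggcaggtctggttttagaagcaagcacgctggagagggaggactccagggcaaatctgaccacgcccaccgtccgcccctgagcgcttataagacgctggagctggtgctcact
Npy5r, chr8:66688095-66688344, minus strand: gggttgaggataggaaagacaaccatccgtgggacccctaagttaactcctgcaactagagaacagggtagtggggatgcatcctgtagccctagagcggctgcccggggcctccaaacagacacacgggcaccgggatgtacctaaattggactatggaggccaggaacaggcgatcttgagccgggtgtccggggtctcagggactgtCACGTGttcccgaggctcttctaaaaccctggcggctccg
Npy and Adm held 0 E-boxes in this window, while Npy5r, Npy1r, Npy2r, Dpp4 and Calca held 1 each. Among 32851 such windows of the genome, 66.2% held at least 1 E-box. The motif TGACG, the core of a cyclic AMP response element, was searched on both strands and occurred in 17.8% of the windows. Calca held 1 match to it and the other 6 genes held 0, and no base lay in both motifs. A match is a description of letters and shows no binding.

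Npy was among the most abundant transcripts of every library. Its level was 4801, 7240 and 5894 TPM in Col8a2 replicates 1, 2 and 3 and 4693, 6807 and 2348 TPM in the libraries labelled Tcf4+/-. By TPM it ranked 20, 15 and 18 among all genes in the Col8a2 libraries and 22, 16 and 48 in the libraries labelled Tcf4+/-. The library labelled Tcf4+/- replicate 3 was the lowest, and the values of the groups overlapped. Between the highest and the lowest library Npy differed 3.08-fold in TPM. In bulk samples such as these, fewer cells of a type and less RNA per cell cannot be told apart.

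On the TMM-scaled CPM scale Npy stood at 1694, 1926 and 1809 CPM in the Col8a2 libraries, against 1464, 2651 and 1184 CPM in those labelled Tcf4+/-. The Col8a2 libraries lay close together, and the libraries of the other group fell on both sides of them. Its mean was 1810 ± 116 CPM against 1766 ± 779 CPM (SD, n = 3 each). The fitted log2 fold change, labelled Tcf4+/- minus Col8a2, was -0.03 (SE 0.39, 95% interval -0.92 to 0.85). It lay above 0, at 0.01, 0.08 and 0.18, without Col8a2 replicate 2 and without the libraries labelled Tcf4+/- replicates 1 and 3, and was -0.44 without the library labelled Tcf4+/- replicate 2. With upper-quartile scaling it was 0.02, and on the log2(TPM + 1) scale -0.48, where the median of all genes tested was -0.15.

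Markers of sympathetic neurons, which are known for Npy, were low and uneven. Dbh, the enzyme that makes noradrenaline, had 0 counts in all 6 libraries. Th, the first enzyme of catecholamine synthesis, had 13 counts in the library labelled Tcf4+/- replicate 3 and 0 in the other 5. The summed level of the markers was 6.53 to 8.04 TPM in the Col8a2 group and 0.58 to 5.44 TPM in the other, without overlap. Most of this sum was Slc18a2, a vesicular monoamine transporter, at 6.05 to 8.04 TPM in the Col8a2 group and 0.36 to 4.95 TPM in the other. In CPM its groups did not overlap, which was so for 8.1% of all genes tested. The log2 fold change of Slc18a2 was -1.07 (SE 0.69), and it did not pass edgeR's test (adjusted p = 0.99988). Slc6a2, the noradrenaline transporter, had 341 counts in Col8a2 replicate 3, 146 in the library labelled Tcf4+/- replicate 2 and 0 in the other 4. Retinal neuron markers were far more abundant, yet they were highest, at 5701 TPM, in the library labelled Tcf4+/- replicate 3, where Npy was lowest. The endothelium markers were lowest in that same library. What part these tissues had in the Npy values was not tested.

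**Figure D1:**
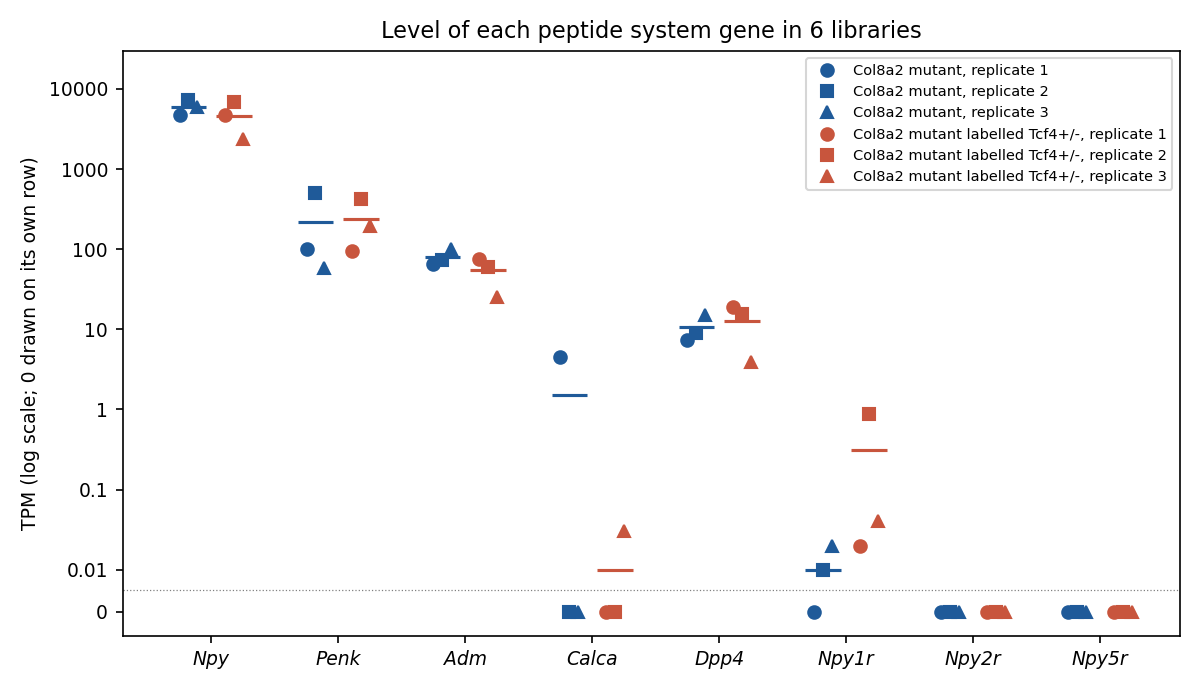
TPM of the 8 genes in each of the 6 libraries on a log axis, with values of 0 on a row of their own. Symbols are libraries and horizontal bars are group means of 3 libraries. Npy lies between 2348 and 7240 TPM in every library, and Npy2r and Npy5r are at 0 in all 6.

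The receptors of neuropeptide Y were at or near 0. Npy2r and Npy5r had 0 counts in all 6 libraries. At the depth of these libraries, a count of 0 allows up to 3 counts, or 0.0253 to 0.0367 TPM for Npy2r and 0.0325 to 0.0471 TPM for Npy5r, for counting error only. Npy1r, the vascular Y1 receptor, had 0, 1 and 3 counts in the Col8a2 libraries, and 2, 125 and 4 in the libraries labelled Tcf4+/-. Its reads thus came almost all from the library labelled Tcf4+/- replicate 2, at 0.87 TPM. That library also had the highest summed level of vascular endothelium markers, 98.0 TPM against 7.74 to 63.8 TPM in the other 5. Of these 8 markers, 7 had counts in all 6 libraries. Col8a2 replicates 1 and 2, next in this sum at 63.8 and 59.8 TPM, had 0 and 1 counts of Npy1r. Stromal keratocyte and pigment cell markers were likewise highest in the library labelled Tcf4+/- replicate 2, at 9990 and 918 TPM. The part of vessels or of these other tissues in the Npy1r counts was not tested. The remaining genes of the family, Pyy, Ppy, Npy4r and Npy6r, had 0 counts in all 6 libraries, so of the 8 ligand and receptor genes listed, Npy alone had counts in every library.

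Dpp4 was detected in every library at a moderate level. It stood at 7.42, 9.08 and 15.2 TPM in the Col8a2 libraries, against 18.9, 15.3 and 3.93 TPM in those labelled Tcf4+/-. Npy exceeded it 249-fold to 797-fold in TPM within a library. On the CPM scale Dpp4 was at 37.2, 31.6 and 51.3 in the Col8a2 libraries, against 79.4, 70.9 and 20.6 in the other group. Replicates 1 and 2 labelled Tcf4+/- thus lay above all Col8a2 libraries, and replicate 3 lay below them all. The log2 fold change was 0.51 (SE 0.47, 95% interval -0.53 to 1.55). Without the library labelled Tcf4+/- replicate 3 it was 0.90, and without replicate 1 of that label it was 0.19. Dpp4 is also the T cell antigen CD26, and of 8 lymphocyte markers listed only Lck had counts in all 6 libraries. Their summed level was 2.28 to 11.4 TPM in the Col8a2 group and 4.39 to 7.35 TPM in the other.

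The other 6 dipeptidyl peptidases and related enzymes listed were all detected in every library. Dpp7, a lysosomal enzyme, and Dpp3, a cytosolic one, had the highest levels, at 77.0 ± 35.0 and 28.7 ± 1.27 TPM in the Col8a2 group and 50.9 ± 16.2 and 21.8 ± 7.93 TPM in the other (SD, n = 3 each). Dpp9, a cytosolic relative, had the smallest p of this list, with 35.5, 37.7 and 24.0 CPM in the Col8a2 libraries and 17.6, 23.4 and 18.3 CPM in those labelled Tcf4+/-. The groups did not overlap for Dpp9, which was so for 8.1% of all genes tested. Its log2 fold change was -0.71 (SE 0.34), and it did not pass edgeR's test (adjusted p = 0.99988).

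Penk, the enkephalin precursor, varied most among the detected peptides and did so within both groups. It stood at 99.2, 497 and 57.8 TPM in the Col8a2 libraries, against 95.9, 426 and 193 TPM in those labelled Tcf4+/-. Replicate 2 was high in both groups, Col8a2 replicate 3 was the lowest, and the highest library exceeded the lowest 8.60-fold. In CPM it was at 121, 473 and 63.0 against 109, 490 and 297, and the groups overlapped. The log2 fold change was 0.45 (SE 0.73, 95% interval -1.18 to 2.08). It was 1.70 without Col8a2 replicate 2 and -0.09 without the library labelled Tcf4+/- replicate 2. Without both libraries of highest lens level, which leaves 1 library in that group, it was -1.01.

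In TPM, the summed level of trabecular meshwork and iris muscle markers put the 6 libraries in the same order as Penk did. In CPM, Penk was higher in replicate 2 labelled Tcf4+/- than in Col8a2 replicate 2, at 490 against 473. The match is to a single list of the several examined and is given as a description. All 7 were detected, 6 of them in every library, and they summed to 785, 1492 and 314 TPM in the Col8a2 libraries, against 673, 1387 and 1309 TPM in those labelled Tcf4+/-. Mgp, an inhibitor of calcification, was the most abundant of them at 492, 997 and 200 TPM and at 439, 901 and 928 TPM. Both replicates numbered 2 were highest in Penk and in this sum, and Col8a2 replicate 3 was lowest in both. Mgp was higher in replicate 3 labelled Tcf4+/- than in replicate 2 of that label, and the muscle genes of the list did not follow this order either. Acta2 was highest in Col8a2 replicate 1, at 90.9 TPM, and Myh11 was lowest in the library labelled Tcf4+/- replicate 3, at 2.92 TPM. Pigment cell markers were also high in both replicates numbered 2, at 896 and 918 TPM, and lowest in Col8a2 replicate 3, at 253 TPM. The part of these tissues in the Penk values was not tested.

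Opioid receptors of the classical mu, delta and kappa types had no counts. Oprm1, Oprd1 and Oprk1 were at 0 in all 6 libraries. Ogfr, which binds met-enkephalin and is unrelated to them, was at 33.2 ± 15.1 TPM in the Col8a2 group and 25.1 ± 3.74 TPM in the other (SD, n = 3 each), and its log2 fold change was -0.15 (SE 0.32). Oprl1, the nociceptin receptor, ranged from 0.04 to 4.14 TPM, while its ligand gene Pnoc had 5 counts in 1 library and 0 in the other 5. Of the other precursors, Pomc was at 1.06, 4.21 and 2.54 TPM against 2.96, 3.86 and 7.34 TPM. Pdyn, the dynorphin precursor, had 8, 525 and 487 counts against 310, 659 and 0, so it was nearly lost in 1 library of each group. Of 5 genes of this list tested, Penk included, 0 passed the test, 3 were fitted higher and 2 lower.

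Calca was present in a single library. It had 132 counts in Col8a2 replicate 1, or 4.57 TPM, 1 count in the library labelled Tcf4+/- replicate 3 and 0 in the other 4. The counts are over the whole gene and do not separate calcitonin from CGRP. Calcb, a close relative that can share reads with it, had 2 counts in the library labelled Tcf4+/- replicate 2 and 0 elsewhere. Nerve fibre markers summed to 232 TPM in Col8a2 replicate 1, and to 299 and 315 TPM in the libraries labelled Tcf4+/- replicates 1 and 3. Snap25 alone gave 172 and 120 TPM of those 2 sums. Retinal neuron markers were also highest in those 2 libraries, at 3175 and 5701 TPM, so the nerve sum cannot be assigned to corneal nerves. Single markers differed, and Uchl1 was highest in Col8a2 replicate 1, at 52.0 TPM. The part of nerve fibres in the Calca counts was not tested.

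Adm was the steadiest of the peptides next to Npy. It stood at 64.6, 74.0 and 100 TPM in the Col8a2 libraries, against 76.5, 60.8 and 25.5 TPM in those labelled Tcf4+/-. In CPM it was at 75.4, 67.0 and 107 against 81.7, 69.8 and 38.3, so the ranges overlapped and the library labelled Tcf4+/- replicate 3 was the lowest, as it was for Npy and Dpp4. The log2 fold change was -0.39 (SE 0.34, 95% interval -1.16 to 0.37). It was -0.14 without that library and -0.03 without both libraries of highest lens level.

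Receptor subunits for adrenomedullin were found in every library. Calcrl, the receptor, was at 1.67, 6.09 and 0.64 TPM in the Col8a2 libraries, against 2.47, 5.78 and 6.16 TPM in those labelled Tcf4+/-. Ramp2, the partner that makes it an adrenomedullin receptor, was at 13.4, 14.6 and 6.54 CPM against 23.8, 24.6 and 16.3 CPM. The groups did not overlap for Ramp2, which was so for 8.1% of all genes tested. Its log2 fold change was 0.91 (SE 0.44), which did not pass the test of edgeR (adjusted p = 0.99988). Ramp1, which makes Calcrl a CGRP receptor, ranged from 1.30 to 3.59 TPM, and Ramp3 from 4.30 to 13.5 TPM. Crcp, a component of CGRP receptor signalling, had the highest level of this list after Adm, at 41.6 ± 3.19 and 29.1 ± 11.6 TPM (SD, n = 3 each). Ackr3, a scavenger of adrenomedullin, ranged from 3.65 to 19.7 TPM. Vascular endothelium, a tissue known for Calcrl and Ramp2, showed marker sums of 63.8, 59.8 and 7.74 TPM in the Col8a2 libraries and 32.2, 98.0 and 35.5 TPM in the others, and its part in these levels was not tested. Of 7 genes of this list tested, Adm included, 0 passed, 4 were fitted higher and 3 lower. Their median log2 fold change was 0.66, against 0.0011 over all genes tested. The 8 vascular endothelium markers tested were all fitted higher, with a median of 0.82, and 0 of them passed.

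**Figure D2:**
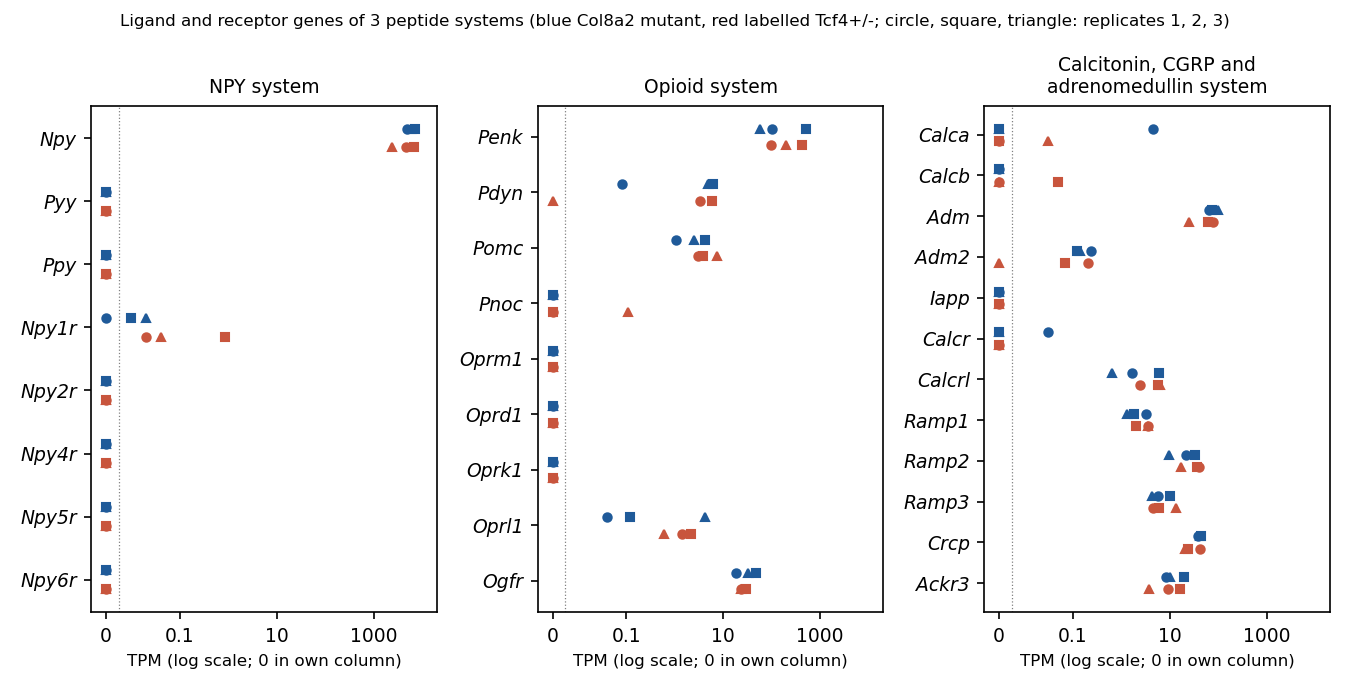
TPM of ligand and receptor genes of the neuropeptide Y, opioid and calcitonin families in each library on a log axis, with values of 0 in a column of their own. Npy and Penk stand above 50 TPM in every library while Npy2r, Npy5r, Oprm1, Oprd1 and Oprk1 are at 0, and Adm is accompanied by Calcrl, Ramp1, Ramp2 and Ramp3.

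Enzymes that turn precursors into active peptides were present in all libraries, with the exception of Pcsk1, a prohormone convertase, and Ece2. Pcsk1 had 0 counts in 3 libraries and 75 at most. Ctsl, a cathepsin that also cuts propeptides, and Cpe, the carboxypeptidase that trims them, had the highest levels of the list, at 316 ± 87.4 and 301 ± 90.6 TPM in the Col8a2 group and 268 ± 112 and 181 ± 37.6 TPM in the other (SD, n = 3 each). Pam, which makes the C-terminal amide of neuropeptide Y, CGRP and adrenomedullin, ranged from 27.5 to 136 TPM and was lowest in the library labelled Tcf4+/- replicate 3. Mme, the neprilysin that degrades enkephalins, had the smallest p, at 39.7, 18.1 and 20.4 CPM against 51.1, 53.3 and 41.9 CPM. Its log2 fold change was 0.90 (SE 0.37), but it did not pass (edgeR adjusted p = 0.99988). The groups did not overlap for Mme, which was so for 8.1% of all genes tested. Pcsk2, another of the convertases listed, was at 11.3 ± 6.52 and 22.3 ± 5.38 CPM (SD, n = 3 each). Of 23 genes tested in this list 0 passed, 12 were fitted higher and 11 lower, with a median log2 fold change of 0.15.

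Within each library Npy stood first of the 8 genes, and Dpp4 stood below Npy, Penk and Adm. The receptors and Calca were lower still. Npy exceeded Penk 12.2-fold to 102-fold and Adm 58.7-fold to 112-fold in TPM, in 6 of 6 libraries each. Penk exceeded Adm in 5 of 6 libraries, and in Col8a2 replicate 3 the ratio of Penk to Adm was 0.576. The means of these neighbours over all libraries were 228 TPM for Penk and 67.0 TPM for Adm, and their ranges, 57.8 to 497 and 25.5 to 100 TPM, overlapped. Adm exceeded Dpp4 3.97-fold to 8.70-fold in 6 of 6 libraries.

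Of the 8 genes, 4 passed the filter on low counts (Npy, Dpp4, Penk and Adm) and 0 of these passed the edgeR test, as did 0% of the 17639 genes tested. The counts were 427 genes, or 2.42%, at an unadjusted p under 0.05, 33 genes, or 0.187%, with DESeq2 at an adjusted p under 0.05, and 0 with limma voom. None of the 4 was among any of these. Their groups overlapped in all 4 cases, and Dpp4 and Penk were fitted higher and Npy and Adm lower, beside 50.1% and 49.9% of all genes tested. Nothing is read from this share, because the genes were proposed from this comparison. The intervals include a doubling for Dpp4 and Penk and a halving for Penk and Adm, and for Npy they run from 0.529-fold to 1.80-fold.

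**Figure D3:**
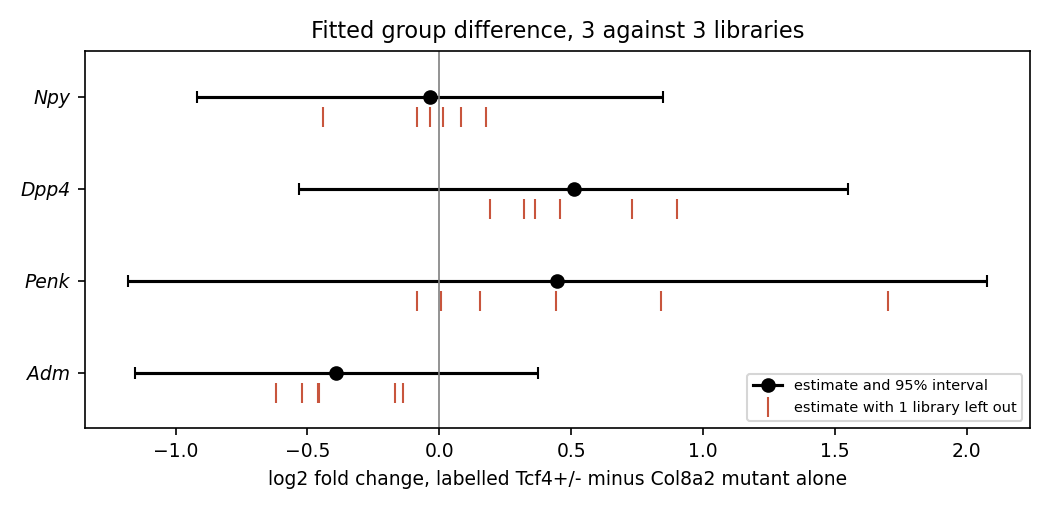
Fitted log2 fold change of the 4 genes tested, as the group labelled Tcf4+/- minus the Col8a2 group, with 95% intervals (black) and the estimates with each library left out in turn (red ticks). All 4 intervals include 0, and the estimates for Npy and Penk fall on both sides of 0 as libraries are left out.

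For each of these 4 genes, the 3 protein-coding genes of most like pattern over the 6 libraries were taken by the root mean square difference of centred log2 CPM among 12978 genes. Nearest to Npy were Syngr2, a vesicle membrane protein, Sema3f, a secreted semaphorin, and Mrc2, a collagen uptake receptor, with differences of 0.0791, 0.0906 and 0.101, where the median gene differed by 0.594. Nearest to Penk were Vsir, an immune checkpoint receptor, at 0.148 and the small proteoglycans Aspn and Fmod at 0.314 and 0.344, with a median of 1.26. Fmod stood at 330, 812 and 172 CPM in the Col8a2 libraries, against 205, 976 and 420 CPM in the others. Nearest to Adm were Anapc2, Pip5k1c and Aass, at 0.0490, 0.0537 and 0.0626, and nearest to Dpp4 were Tspan12, Rad1 and Zkscan3, at 0.0552, 0.178 and 0.186. All genes were compared over the same 6 libraries, which differ in depth and tissue makeup, so these likenesses are a description.

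**Figure D4:**
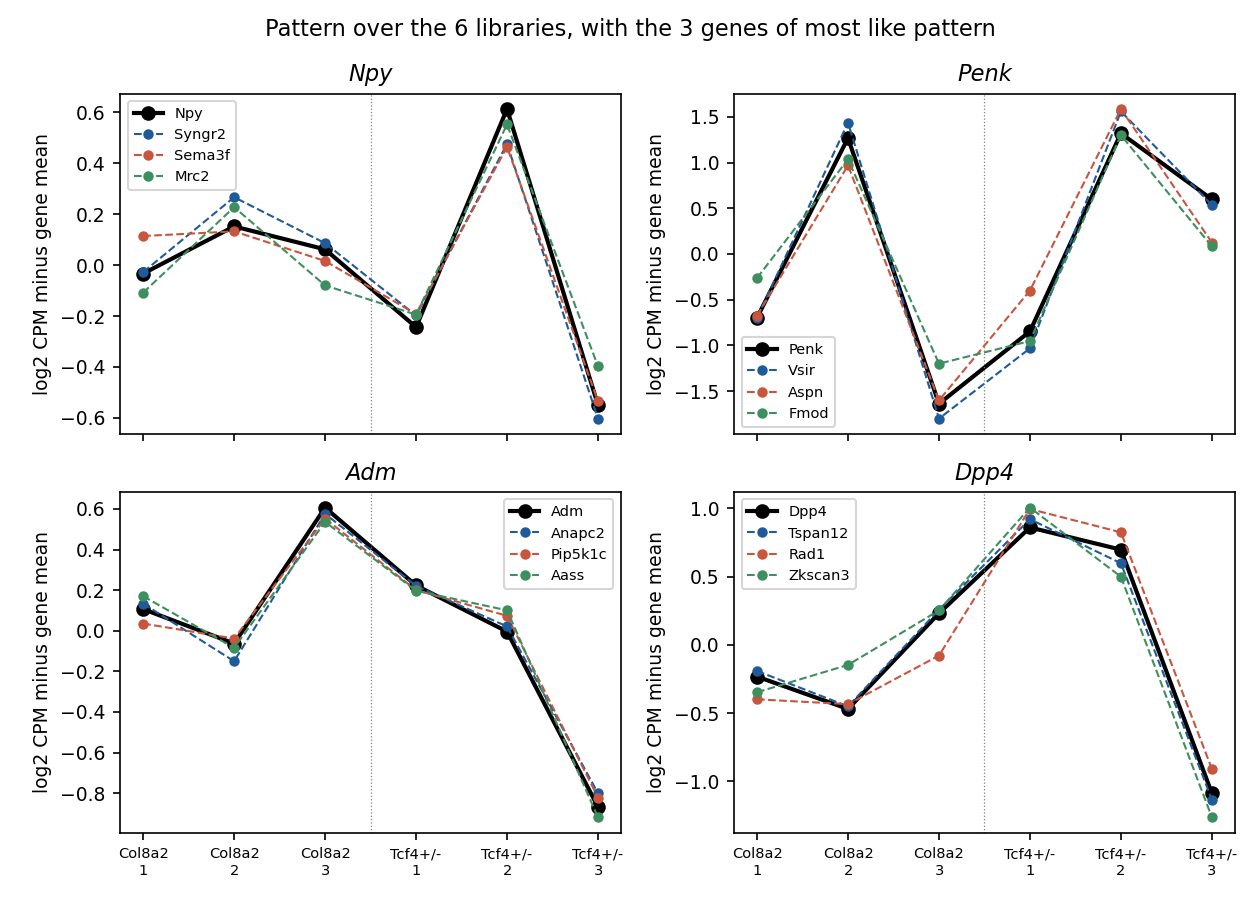
Log2 CPM of Npy, Penk, Adm and Dpp4 (black) and of the 3 genes of most like pattern (coloured), each minus its own mean over the 6 libraries. Lines only guide the eye between libraries, which have no order within a group. Penk is high in both replicates numbered 2, and Npy, Adm and Dpp4 are lowest in the library labelled Tcf4+/- replicate 3.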

How the data were processed

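RNA was made into full-length cDNA with the SMART-Seq HT Kit and Nextera XT libraries, per the labels' protocols, which do not describe a strand-keeping step. The submitters' processing notes name RSEM, STAR, DESeq2, fastp 0.23.2, FastQC 0.12.1 and build GRCm39, with other versions and the annotation not given in the sources used here. From RSEM the authors deposited expected counts, unscaled, of which 9.97% were not whole. They also deposited TPM, scaled by the authors to gene length and to a fixed sum in each library. Of 57180 identifiers, 51884 were matched to a symbol of GENCODE M21 (build GRCm38, used for names only). Dpp4, Penk and Adm each overlap an annotated gene on the opposite strand. Without strand, reads in any stretch they share cannot be assigned with certainty. Overlap was checked for whole gene spans and not for exons.

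Counts were rounded, filtered with filterByExpr (17639 genes), scaled by TMM (factors 0.973 to 1.06) and tested by quasi-likelihood in edgeR 4.0.16 (R 4.3.3) under Benjamini-Hochberg adjustment at 0.05. Over all genes tested the log2 fold change had a median standard error of 0.54. Intervals are 95% intervals of the fit. DESeq2 1.42.0 and limma 3.58.1 were alternatives. Scripts were tested on simulated counts, and no pair of libraries within a group agreed within sampling noise. With 3 against 3, an exact permutation test cannot go below p = 0.1, so it was not used.

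The members and lists were chosen with earlier results of these data known. Named genes are the members, from each other function list the 2 of smallest p and the 2 of highest TPM. The rule also takes the 2 most abundant of each marker list, most of which are covered by their list's sum. Other genes named, such as Pdyn, Oprl1, Pam, Ramp1, Ramp3, Ackr3, Dbh, Th, Slc6a2 and receptors at 0, were chosen after their values were seen. Of the marker lists, sums are given and few single genes are named.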

Additional observations from a re-analysis of the deposited data

How the results depend on the processing

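Under 17 other settings 0 of the tested members passed, and Dpp4 (0.05 to 0.98) and Adm (-0.67 to -0.03) kept the sign of their log2 fold change in all 17. Npy turned positive with upper-quartile scaling (0.0187) and with a mean of at least 5 CPM (0.0006), and ranged from -0.44 to 0.18 as each library was left out. Penk ranged from -0.0862 to 1.70 as each library was left out, and was -1.01 without both libraries of highest lens level, labelled Tcf4+/- replicates 2 and 3. The cause of these changes was not tested. DESeq2 called 33 genes of all tested, and leaving out each library gave 0 to 4, the 4 without Col8a2 replicate 3. On the log2(TPM + 1) and log2(TPM + 0.1) scales the median of all genes lay at -0.15 and -0.18, beside -0.48 for Npy on both. Deviations of same-numbered libraries of the 2 groups had correlations of -0.0237, 0.139 and -0.0154 for replicates 1, 2 and 3. Libraries of unlike number gave -0.0851 to 0.0891, so the value for replicate 2 was the highest. The labels do not say that the numbers are pairs, and they were not taken as such. With the replicate block 0 genes passed, and the log2 fold changes were -0.12 for Npy, 0.36 for Dpp4, 0.68 for Penk and -0.42 for Adm. The depth of 30344161 to 54265479 counts bounds the receptors at 0, for counting error only.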

Other observations

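Among other peptide systems of the eye, the endothelin B receptor gene Ednrb had the highest level of 26 genes listed. It was at 220 ± 39.7 TPM in the Col8a2 group and 130 ± 89.4 TPM in the group labelled Tcf4+/- (SD, n = 3 each). In CPM it was at 661, 759 and 702 against 615, 645 and 122, with replicate 3 labelled Tcf4+/- far below the rest. The groups did not overlap for Ednrb, which was so for 8.1% of all genes tested. Its log2 fold change was -0.62 (SE 0.54), and it did not pass edgeR's test (adjusted p = 0.99988). The ligand gene Edn3 was at 12.7 ± 2.15 and 20.9 ± 8.95 TPM (SD, n = 3 each). Edn3 had the smallest p of 16 genes tested in this list, at 31.6, 33.6 and 30.4 CPM against 40.1, 80.7 and 59.7 CPM. Its log2 fold change was 0.92 (SE 0.32), and it did not pass with edgeR (adjusted p = 0.99988). Cck, the cholecystokinin precursor, was at 13.4 ± 4.90 and 21.1 ± 8.31 TPM (SD, n = 3 each). Of the list, 0 genes passed, 10 were fitted higher and 6 lower. In the list of G proteins and cyclic AMP signalling 0 of 20 passed, with Gnas at 831 ± 37.6 and 746 ± 97.2 TPM and Gnai2 at 166 ± 49.4 and 128 ± 19.6 TPM (SD, n = 3 each). Creb1 and Crem, transcription factors of that pathway, had log2 fold changes of -0.80 and -0.94 with standard errors of 0.36 and 0.49.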
